A study of Mus musculus with 28 samples.

Results

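The make-up of each gene's RNA, that is, the share of the gene's counts held by each of its transcripts, was compared between late and early wild-type rod photoreceptors of the mouse. Members were the autosomal genes with 2 or more annotated transcripts and a mean count of at least 100 on both sides of the comparison. This gave 7465 genes, with 49399 transcripts, of the 45594 genes and 113468 transcripts in the series. The early side held 5 libraries (2 at postnatal day 2 (P2) and 3 at P4) and the late side 6 (2 at P8 and 4 at P10). The study followed rods of wild-type (WT) and rd1 mice after birth, and rd1 mice carry the mutant allele on both copies of Pde6b (Pde6b rd1/rd1), the gene of a subunit of the rod cGMP phosphodiesterase. All groups, WT included, carried the TgNrlp-EGFP transgene, in which an Nrl promoter drives green fluorescent protein in rods, and GFP+ cells were purified by flow cytometry. Further libraries used here were 4 of WT at P6 and, of rd1 rods, 4 early (P2 and P4) and 6 late (P8 and P10). Of these 6, more were of P8 than of P10, the reverse of the late WT side. The labels do not say whether libraries of a group came from separate animals, so p-values measure only the spread between these samples, which may be technical.

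Most mammalian genes can be read from more than 1 start site and spliced in more than 1 way, so that a gene can make proteins that differ in part of their sequence, or RNAs that are degraded before they are translated. Photoreceptors are known for exons of their own, among them very short ones called microexons, in genes of the cilium, the outer segment and the ribbon synapse. Splicing factors such as those of the Musashi, Ptbp, Mbnl and Srrm families are known to set which exons are kept, and a change of promoter brings another first exon. Between P2 and P10 mouse rods leave the newborn state, build cilia and synapses and begin to form outer segments.

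Sequences are shown first for exons that 1 transcript of a switching pair had and the other lacked, since such exons make up part of the changes of usage described below. Capitals mark the exon, and the lower-case letters are the 15 bases on either side of it in the transcript, read 5′ to 3′ on the strand of the gene, from GENCODE M21 transcripts on GRCm38. The exons lie at chr4:44031400-44031435 (Clta, + strand), chr7:144396638-144396646 and chr7:144398241-144398261 (Shank2, +), chr12:98937120-98937149 (Ttc8, +), chr5:43728271-43728291 (Cc2d2a, +), chr2:32293315-32293395 (Golga2, +), chr11:116293275-116293313 (Exoc7, - strand), chr4:156168546-156168569 (Agrn, -) and chr1:139314571-139314753 (Crb1, -). All are coding, and each has a length that is a multiple of 3 bases.
Clta exon 6: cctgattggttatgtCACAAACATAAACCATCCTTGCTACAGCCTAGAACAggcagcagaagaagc
Shank2 exon 10: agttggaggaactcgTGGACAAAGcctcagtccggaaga
Shank2 exon 11: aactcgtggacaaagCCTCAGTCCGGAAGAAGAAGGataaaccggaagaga
Ttc8 exon 2: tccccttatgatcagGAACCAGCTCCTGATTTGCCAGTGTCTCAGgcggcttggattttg
Cc2d2a exon 32: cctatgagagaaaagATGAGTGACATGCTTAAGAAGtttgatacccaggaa
Golga2 exon 3: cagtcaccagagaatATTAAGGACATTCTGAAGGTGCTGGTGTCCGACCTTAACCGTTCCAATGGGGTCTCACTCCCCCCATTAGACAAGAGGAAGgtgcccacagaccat
Exoc7 exon 13: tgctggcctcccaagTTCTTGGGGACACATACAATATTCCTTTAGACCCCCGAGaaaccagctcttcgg
Agrn exon 34: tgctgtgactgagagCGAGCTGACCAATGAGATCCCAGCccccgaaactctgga
Crb1 exon 5: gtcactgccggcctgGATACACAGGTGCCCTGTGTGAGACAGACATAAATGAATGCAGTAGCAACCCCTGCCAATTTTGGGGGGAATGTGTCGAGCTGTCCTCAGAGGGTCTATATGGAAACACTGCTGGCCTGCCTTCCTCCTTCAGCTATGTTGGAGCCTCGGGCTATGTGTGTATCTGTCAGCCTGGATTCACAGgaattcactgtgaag

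Of the 7465 genes, 6729 kept 2 or more transcripts after the filter on low counts and could be tested, and 736 could not. Usage changed between early and late WT rods in 677 of them by the main test, edgeR's gene-level F test, and 9.52% of all 8238 genes tested in the table were called. On simulated counts with dispersions as uneven as those of these transcripts, that test called more unchanged genes than its threshold allows, and limma's diffSplice stayed closer to it. The calls of limma are therefore given beside it: limma called 697 members, and both tools called 481, or 7.15% of the members tested, against 6.62% of all genes tested. A change is written of a gene below only where both tools called it. The leading transcript of a gene is the one whose mean share differed most between the sides. Among the 481 genes its difference had a median size of 12 percentage points, and 79 genes differed by under 5 points, 127 by 5 to 10 and 275 by 10 or more. The median over all members tested was 4.49 points.

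A large shift was counted where the main test called the gene, the leading transcript passed the threshold itself and differed by 10 points or more, and its shares did not overlap between the 5 early and 6 late libraries. There were 65 such genes, and the rule took 1.04% of all genes tested. Both tools called the gene and its leading transcript in 56 of them, 29 with the leading transcript higher late and 27 with it lower. Just inside the limit lay Snx17 at 10.3 points and Zc3h14 at 10.4, and just outside it Rbm26 at 9.86 and Unc13b at -9.06. In 28 of the 65 the transcript with the largest share was another one late than early. That was so in 7.31% of all members, but the rule, which asks for 10 points or more, itself favors such a change. At the level of the whole gene, 23 of the 65 were higher late, 14 lower and 28 not called, where 45.2% of all genes tested at gene level were called.

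The sorted cells bore rod markers throughout, with Nrl at 1580 to 3050 CPM (counts scaled to equal library totals) in the 11 libraries. The summed level of 6 rod genes ranged from 5110 to 8300 CPM early and from 18900 to 39500 CPM late. Markers of other cells moved with age too. The 27 progenitor and proliferation genes summed to 2050 to 3460 CPM early and 286 to 1000 CPM late, with 26 of 27 lower, and 12 bipolar genes to 84.9 to 114 CPM early and 363 to 1590 CPM late, with 11 higher. The 11 cone genes summed to 872 to 1180 CPM early and 302 to 741 CPM late, with 6 called higher and 3 lower. The 14 microglia and macrophage genes summed to 9.94 to 24.1 CPM early and 13.6 to 63.1 CPM late, with 5 of 11 tested called higher and 0 lower, and Aif1, Tyrobp, P2ry12 and Tmem119 of this list stayed under 1 CPM. The 12 vessel and blood genes summed to 189 to 388 CPM early and 57.1 to 487 CPM late, with 7 called higher and 1 lower. In bulk samples, fewer cells of a type and less RNA per cell cannot be told apart, and the part of these cells in the usage differences was not tested. Library totals ran from 11.9 to 15 × 10⁶ counts. Library sex was not balanced: the 2 P8 libraries held under 1 CPM of the Y-linked Ddx3y, and 3 of the 4 P10 libraries under 4 CPM of Xist. The early libraries all held both, with Xist at 1020 to 3420 CPM and Ddx3y at 37.3 to 83.2 CPM. P10 replicate 5 held both too (1610 and 32.2 CPM). The early and late sides thus differed in this as well as in age.

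Clta encodes clathrin light chain A, part of the coat of endocytic vesicles. Transcript Clta-003, with the 36-base exon shown above, held 13.9%, 15.1%, 22.9%, 15.5% and 15.6% of the gene's counts in the early libraries (P2 first). In the 6 late libraries it held 44.8% at the lowest, 60.2% at the median and 70.2% at the highest. The groups did not overlap, with means of 16.6% ± 3.6 (SD, n = 5) and 59.1% ± 8.31 (n = 6), and usage of the gene changed with an adjusted p of 9.9e-14 (edgeR) and 1.25e-13 (limma). Clta-002, which differs by the lack of this exon, went from 58.9% ± 1.49 to 23.2% ± 8.55. Over all transcripts that span its position, counts with the exon made up 19.4% ± 3.7 early and 68.2% ± 8.98 late. The 4 WT libraries at P6 lay between these, at 32.9% to 40.8%.

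**Figure D1:**
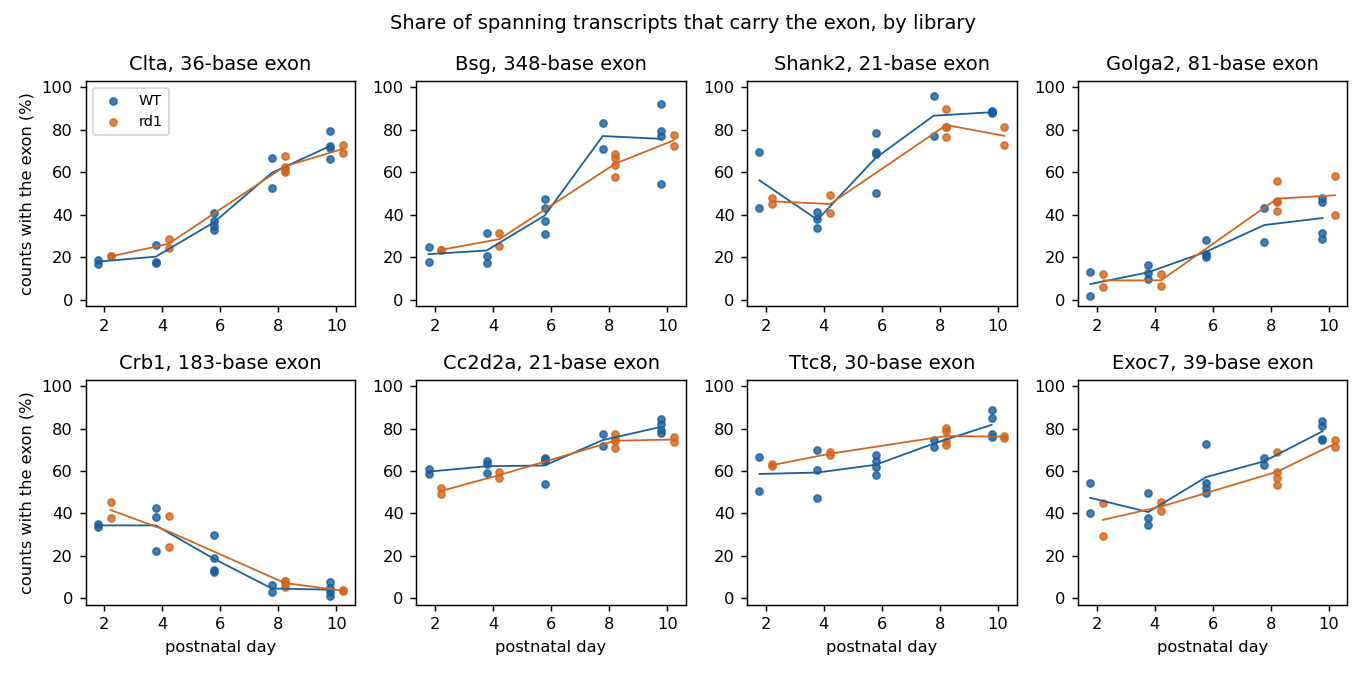
Counts of transcripts that carry an exon, as a percentage of the counts of all transcripts that span its position, for 8 exons by postnatal day. Each point is 1 library (WT blue, rd1 orange; P6 of rd1 not used), and lines join the mean of each age. In Clta the WT libraries lie between 17% and 25.9% early and between 52.7% and 79.6% late, and in Crb1 the exon goes the other way.

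Basigin (Bsg) has a retina-specific form with an additional immunoglobulin domain, a partner of rod-derived cone viability factor. Its 348-base exon 2 (chr10:79708697-79709044, + strand) was in 22.5% ± 5.81 of counts early and in 76.2% ± 12.7 late. The late libraries ran from 54.5% to 92.1% and the early ones from 17.5% to 31.5%. Usage of Bsg changed (adjusted p = 0.000413 by edgeR and 7.28e-06 by limma). The form without the exon, Bsg-002, varied widely among the early libraries, from 28.4% to 69.1%.

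Of 43 cilium and outer segment genes tested, both tools called 8 (18.6%, where 6.62% of all genes tested were called), namely Cc2d2a, Ift80, Kif3a, Mak, Prom1, Rab28, Ttc8 and Unc119. Ttc8 (BBS8) is a subunit of the BBSome, the complex that carries membrane proteins in cilia, and its 30-base exon 2 is known from photoreceptors. That exon was in 59% ± 9.81 of counts early, from 47.5% to 69.9%, and in 78.8% ± 6.64 late, from 71.3% to 88.7% (gene adjusted p = 0.000524 by edgeR and 0.000696 by limma, and 0.0515 by edgeR without the 3 P10 libraries with Xist near 0). Cc2d2a encodes a protein of the ciliary transition zone. Its 21-base exon 32 went from 61.2% ± 2.57 to 78.7% ± 4.26, and its 15-base exon 25 from 57.6% ± 2.32 to 72.4% ± 5.22, both without overlap. Only 1 transcript, Cc2d2a-001, carries either exon, so these values are not separate measurements. It also differs from the falling Cc2d2a-002 in its first and last exons. In Arl6 (BBS3), a small GTPase that recruits the BBSome, the 13-base exon 7 was in 76.8% ± 3.74 and 81.9% ± 2.25 of counts, and the gene did not pass the main test. Rab28 encodes a small GTPase, and its Rab28-001 and Rab28-002 differ by an internal exon, with 663 and 660 coding bases. Rab28-001 held 68.6% ± 2.13 of counts early and 30.5% ± 9.29 late (adjusted p = 1.26e-06 by edgeR and 7.05e-09 by limma).

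Crb1, an adhesion gene whose loss causes retinal dystrophy, lost an exon. The 183-base exon 5 shown above was in 34.4% ± 7.71 of counts early, from 22.1% to 42.8%, and in 4.29% ± 2.31 late, from 1.3% to 7.52%. The form that has it, Crb1-001, with 4215 coding bases against 3942 in the rising Crb1-003, fell by 25.1 points. Crb1-001 and Crb1-003 also have different last exons. The gene as a whole rose by 1.74 ± 0.152 (log2, SE). Usage changed with an adjusted p of 3.54e-11 (edgeR) and 5.53e-11 (limma).

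Synapse genes were called in 14 of 43 members tested, where 6.62% of all genes tested were called by both tools. Besides Clta and Ctbp2 they included Amph, Cacna2d4, Dlg4, Itsn1, Mpp4, Nrxn3, Pclo, Snap91, Stx3, Unc13b and Vamp2. Itsn1, an endocytic scaffold, has a short form and a long form with another last exon (3639 and 5142 coding bases): the short Itsn1-003 held 42.5% to 45.6% of counts early and 1.06% to 28.6% late. Stx3, the syntaxin of ribbon synapses, went from 7.51% ± 5.32 to 30.6% ± 4.24 in Stx3-201 (adjusted p = 0.00856 by edgeR and 0.004 by limma). Without the 3 P10 libraries with Xist near 0 the call of Stx3 was lost (0.155, edgeR). Shank2, a scaffold of synapses that stands outside this list, took up 9-base and 21-base exons. The 21-base exon was in 45.1% ± 14 of counts early and 87.8% ± 6 late. Transcript Shank2-002, which also starts at another first exon, rose from 9.69% ± 8.61 to 74.2% ± 6.22 (adjusted p = 0.00141 by edgeR and 0.0187 by limma), on only 298 counts per library early and 464 late.

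Cytoskeleton and adhesion genes were called by both tools in 15 of 48 members tested (31.2%, against 6.62% of all genes tested), among them Agrn, Ank2, Ank3, Map2, Map4, Ncam1 and Tpm3. Agrin (Agrn) is a matrix proteoglycan whose small inserts at the so-called y and z sites are known from neurons. Its 12-base exon 30 went from 58% ± 3.6 to 70.7% ± 1.47 of counts. The 24-base exon 34 went from 21.8% ± 2.83 to 35.8% ± 4.54 and the 33-base exon 35 from 11.5% ± 2.76 to 23.4% ± 2.98. None of the 3 overlapped between the sides. Agrn-004 carries all 3, so these values are not independent. Map2, a microtubule protein of neurons, had 41.8% ± 5.32 of its counts in Map2-002 early and 72% ± 3.92 late, and differs from Map2-201 by another first exon, with 1401 coding bases in both. Map2-002 alone did not pass the threshold (0.796), and the gene's usage changed (adjusted p = 1.61e-13 by edgeR and 0.041 by limma).

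Golga2, Exoc7 and Ap1b1, chosen after their values were seen, are in none of the lists, and both tools called each. Golga2 encodes a Golgi matrix protein, and its 81-base exon 3 went from 10.7% ± 5.43 to 37.4% ± 9.46. Exoc7 belongs to the exocyst, which tethers vesicles to the plasma membrane, and its 39-base exon 13 went from 43.3% ± 8.33 to 74% ± 8.1. In Ap1b1, a subunit of the AP-1 adaptor, a 21-base exon went from 18.7% ± 1.06 to 33% ± 4.38.

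Over the 60 of the 65 genes with a large shift whose rising and falling transcripts both matched the annotation, 50 pairs (83.3%) differed in coding sequence, close to the 82.1% of all members tested. An internal exon was in 1 transcript of the pair only in 28, or 46.7%, and in 27.6% of the 5998 pairs over all members tested. Of the 50 such exons, 41 (82%) had a length that is a multiple of 3 and 10 (20%) were 27 bases or shorter, and over all members tested these shares were 51.7% and 6.85%. Another first exon was found in 28 pairs (46.7%), close to the 47.7% of all members, another last exon in 25% against 36.7%, and a retained intron in 3.33% against 18.4%. These are descriptions, since the lists were not tested against each other.

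Among the genes whose rising and falling transcripts have different first exons, Frmpd1 had the largest difference of all 65. It encodes a scaffold protein that in photoreceptors is known to act on transducin movement. Frmpd1-001 held 5.37%, 15.3%, 20.4%, 10.8% and 11% of counts early and 83.6% at the lowest, 97.8% at the median and 100% at the highest late. Usage changed with an adjusted p of 0.000325 (edgeR) and 0.00115 (limma), and the gene rose by 2.77 ± 0.41 (log2, SE). The alternative Frmpd1-201 starts 19019 bases upstream, and both have 4647 coding bases. Rabgef1, an exchange factor for Rab5 in endocytosis, went from 8.01% ± 2.64 to 56.2% ± 18.1 in Rabgef1-002, with 1473 coding bases in both Rabgef1-002 and Rabgef1-001, and P8 replicate 2 stood at 20.1% where the other late libraries lay at 57.7% or more.

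Rorb encodes a nuclear receptor needed for rod formation, with 2 promoters that give proteins with different beginnings. Rorb-005 (1377 coding bases) held 55.1%, 48.7%, 37.2%, 56.2% and 65.6% of counts early and 3.99% to 17.1% late, while Rorb-001 (1410 coding bases), which starts 110079 bases further in, went from 37.4% ± 9.22 to 79% ± 5.56. Usage changed with an adjusted p of 2.61e-09 (edgeR) and 1e-09 (limma), and the gene-level difference was -0.379 ± 0.151 (log2, SE; adjusted p = 0.0553). In Ctbp2, the start inside the gene gives RIBEYE, the main protein of the synaptic ribbon, and the upstream starts give the transcriptional corepressor CtBP2. The RIBEYE transcript Ctbp2-004 stood at 23.8%, 28.5%, 28.6%, 27.5% and 25.1% early and at 40.6% to 48.9% late, and Ctbp2-002 at 32.8% ± 5.59 and 16.1% ± 3.09. The gene's usage changed (adjusted p = 1.99e-08 by edgeR and 1.5e-08 by limma), and Ctbp2-004 alone did not pass the threshold (0.149).

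The 250 bases upstream of 4 of these starts are shown (RefSeq, GRCm38.p6), since counts moved there between annotated transcripts with different first exons. Start sites themselves were not measured. They lie at chr19:19001118-19001367 (Rorb-001, - strand), chr19:19111197-19111446 (Rorb-005, -), chr7:133015248-133015497 (Ctbp2-004, -) and chr5:130186930-130187179 (Rabgef1-002, +). Capitals mark TAATCC, the core letters that Crx and Otx2 are known to bind, and TGCTGA, a core of Maf-family sites such as those of Nrl, on either strand (GGATTA and TCAGCA on the other).
Rorb-001: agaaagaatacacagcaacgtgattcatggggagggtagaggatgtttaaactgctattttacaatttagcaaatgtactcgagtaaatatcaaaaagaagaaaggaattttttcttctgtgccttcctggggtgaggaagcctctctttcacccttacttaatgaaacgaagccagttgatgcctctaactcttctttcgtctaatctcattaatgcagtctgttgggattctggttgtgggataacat
Rorb-005: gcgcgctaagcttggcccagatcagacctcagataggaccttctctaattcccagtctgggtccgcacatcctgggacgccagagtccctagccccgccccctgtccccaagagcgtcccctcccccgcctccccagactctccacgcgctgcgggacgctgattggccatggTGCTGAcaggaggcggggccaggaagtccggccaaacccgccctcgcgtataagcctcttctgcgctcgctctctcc
Ctbp2-004: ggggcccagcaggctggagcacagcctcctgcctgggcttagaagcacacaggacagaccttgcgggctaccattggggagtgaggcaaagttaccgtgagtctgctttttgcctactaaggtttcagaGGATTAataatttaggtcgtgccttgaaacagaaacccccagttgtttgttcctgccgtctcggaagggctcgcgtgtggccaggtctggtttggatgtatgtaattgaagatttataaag
Rabgef1-002: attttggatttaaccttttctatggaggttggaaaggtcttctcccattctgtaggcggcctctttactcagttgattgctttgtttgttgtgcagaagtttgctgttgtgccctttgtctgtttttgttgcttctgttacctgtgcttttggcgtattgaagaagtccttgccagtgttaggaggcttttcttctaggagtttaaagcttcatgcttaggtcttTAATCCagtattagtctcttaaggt

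TAATCC was found in 6.25% and TGCTGA in 16.1% of the 32851 RefSeq windows of this length. Of the 28 pairs with another first exon, 8 rising and 14 falling starts had a window within 35 bases. TAATCC was in 3 of the 8 rising and 0 of the 14 falling windows, and TGCTGA in 0 of the 8 rising and 4 of the 14 falling ones. A match of letters is a description of the window and not a site.

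**Figure D2:**
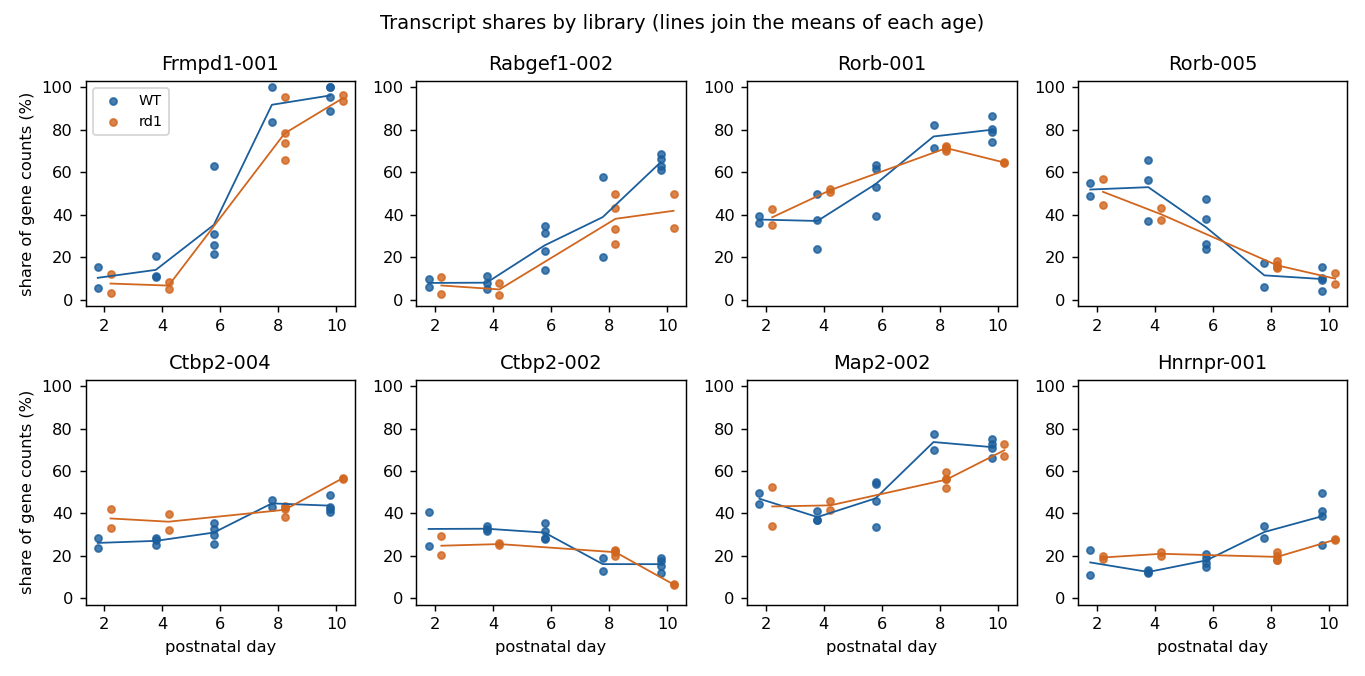
Share of a gene's counts held by 1 transcript (percent), by postnatal day, for 8 transcripts. Each point is 1 library (WT blue, rd1 orange; P6 of rd1 not used), and lines join the mean of each age. Frmpd1-001 moves from at most 20.4% early to at least 83.6% late in WT, and Rorb-001 and Rorb-005 change places.

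Among genes of RNA-binding proteins, both tools called 4 of 32 splicing regulators (12.5%), among them Pcbp3, Rbm39 and Tial1, and 6 of 30 SR and hnRNP genes (20%), namely Hnrnpf, Hnrnpl, Hnrnpr, Srsf2, Srsf5 and Srsf6. Of the core spliceosome genes they called 2 of 32 (6.25%), Clk1 and Srpk2, where 6.62% of all genes tested were called. Hnrnpr-001, with 1896 coding bases where Hnrnpr-003 has 1593, went from 14.2% ± 4.81 to 36.2% ± 8.92. In Srsf6 the coding Srsf6-001 stood at 70.2% ± 7.56 early and 53.2% ± 8.5 late, and in Srsf2 the intron-retaining Srsf2-004 at 38.3% ± 6.48 and 52.1% ± 4.53; the genes were called and these transcripts alone were not. Summed over all members, no class passed the test: retained-intron transcripts held 7.67% ± 1.23 of counts early and 7.87% ± 0.931 late (exact permutation test, two-sided, p = 0.753 before and 0.879 after adjustment over 7 transcript classes). Transcripts marked for nonsense-mediated decay held 3.13% ± 0.222 and 3.23% ± 0.218, and protein-coding ones 84.3% ± 1.95 and 84.2% ± 1.51. The processed-transcript class had the smallest p, 0.0303, and did not pass after adjustment (0.212); the smallest p this design allows is 0.00216.

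At the level of whole genes, 5 of 46 splicing regulators tested were higher late and 16 lower, together 45.7%, close to the 45.2% of all genes. The 6 with the smallest p are given first. Mbnl1 rose from 57.5 ± 11.3 to 249 ± 40.8 CPM, a log2 difference of 2.25 ± 0.172 (SE; adjusted p = 1.08e-06, edgeR), and Pcbp3 rose from 216 ± 16.8 to 337 ± 38.6 CPM. The polypyrimidine tract-binding genes, repressors of neuronal exons, fell: Ptbp1 from 146 ± 19.7 to 76.7 ± 12.6 CPM, Ptbp2 from 413 ± 53.7 to 209 ± 34.4 CPM and Ptbp3 from 58.8 ± 12.9 to 21.3 ± 4.9 CPM. Nono, an X-linked gene, fell from 448 ± 34.4 to 266 ± 32.5 CPM. Srrm4, a factor of neuronal microexons, fell by 0.683 ± 0.143 (log2, SE; adjusted p = 0.00168, edgeR). Srrm3, of the same family, went the other way and rose by 0.345 ± 0.128 (log2, SE, adjusted p = 0.0413, edgeR). Msi1, of the Musashi family, stood at 958 ± 160 CPM early and 682 ± 78.7 CPM late and did not pass (adjusted p = 0.0666).

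The list of genes with known photoreceptor forms held 13 called by both tools of 25 tested (52%), and it was chosen for such forms. Besides those described they were Atp1b2, Glb1l2, Nrl, Prom1, Rtn4 and Unc119. Glb1l2, a galactosidase-like gene, had 71.8% ± 14.8 of counts in Glb1l2-002 early and 33.2% ± 13.3 late, a call lost without the same 3 P10 libraries (adjusted p = 0.0674, edgeR). In Nrl, the transcription factor of rod fate, the difference was small: Nrl-201 held 93.1% ± 0.352 early and 89.9% ± 1.67 late, and without those 3 libraries the call was lost (0.132). Impdh1, which has retinal forms, did not pass (68.6% ± 5.57 and 70.4% ± 6.11 in Impdh1-001), nor did Rims2, a synaptic active-zone gene (71.9% ± 7.58 and 72.2% ± 5.23). Of 15 phototransduction genes tested, 0 were called by edgeR or limma. Both tools called 3 of 32 energy metabolism genes (9.38%), among them Eno1 and Hk1, enzymes of glycolysis, and 4 of 36 photoreceptor transcription regulators (11.1%), namely Nr2e3, Nrl, Pias3 and Rorb. Both shares lie near the 6.62% of all genes tested.

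**Figure D3:**
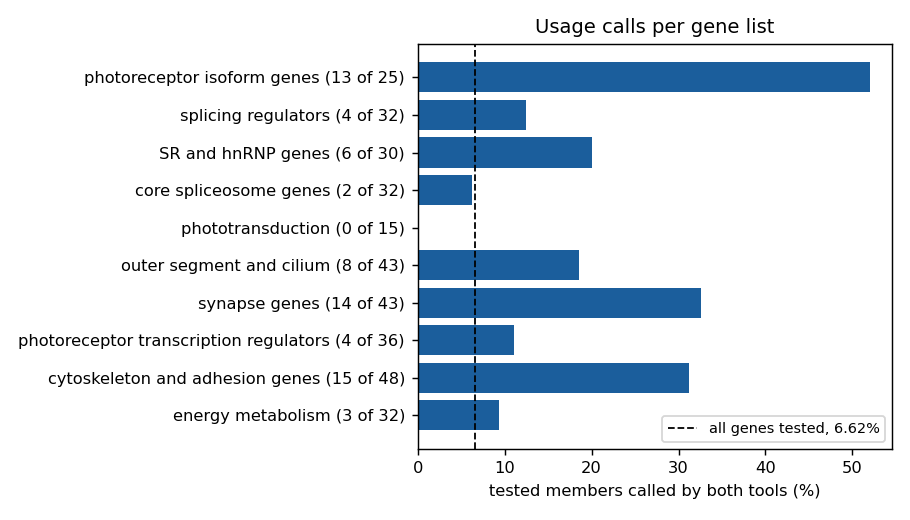
Percentage of the tested members of each of 10 gene lists whose transcript usage was called by both edgeR and limma between early and late WT rods; counts are in brackets. The dashed line marks the 6.62% of all genes tested, and phototransduction, at 0 of 15, is the 1 list without a call.

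Some shifts rest on transcripts that are hard to separate or on few counts. Dvl2-001, of a Wnt signalling gene, fell from 46.8% ± 11.7 to 2.25% ± 2.97, but Dvl2-006 and Dvl2-201, which took its place and are both 5037 bases long, had equal shares in each library (44.6% ± 1.85 late for each). Prc1, a cytokinesis gene, lost Prc1-006 (45.7% ± 7.81 to 0.034% ± 0.0832) while its summed count went from 890 to 126, and it fell together with the progenitor genes given above, whose part in it was not tested. Kif14, Clcn3 and Rd3l met the rule for a large shift by edgeR and not by limma (adjusted p = 0.185, 0.21 and 0.288).

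The same comparison in rd1 rods used other libraries. Of 6976 members tested there, edgeR called 1195, where 15.5% of all genes tested were called. Both tools called 840, or 12% of the members tested, against 10.7% of all genes tested. Of the 481 genes called in WT by both tools, 178 (37%) were called in rd1 by both, and of the 6495 members not called in WT by both, 662 (10.2%) were. In 64 of the 65 genes with a large shift the rd1 difference had the sign of the WT difference, and its median size was 69.7% of that in WT. The 65 were picked for large differences in WT, and more of the late rd1 libraries were of P8. The sizes in WT and rd1 are therefore not on equal terms, and whether the change was weaker in rd1 cannot be read from them. Clta exon 6 was in 23.4% ± 3.81 of counts in early rd1 rods and 65.6% ± 5.12 in late ones, and Crb1 exon 5 in 36.6% ± 8.98 and 6.07% ± 2.19. Frmpd1-001 stood at 7.16% ± 3.85 and 83.9% ± 12.9. In rd1 the P2, P4 and P10 libraries were deeper than any WT library, at 17.1 to 21.4 × 10⁶ counts, so genotype and depth cannot be told apart at those ages. The P8 libraries of rd1 held only 11.1 to 13.8 × 10⁶ counts. Depth thus went partly with age within rd1, and its part in the rd1 differences was not tested.

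**Figure D4:**
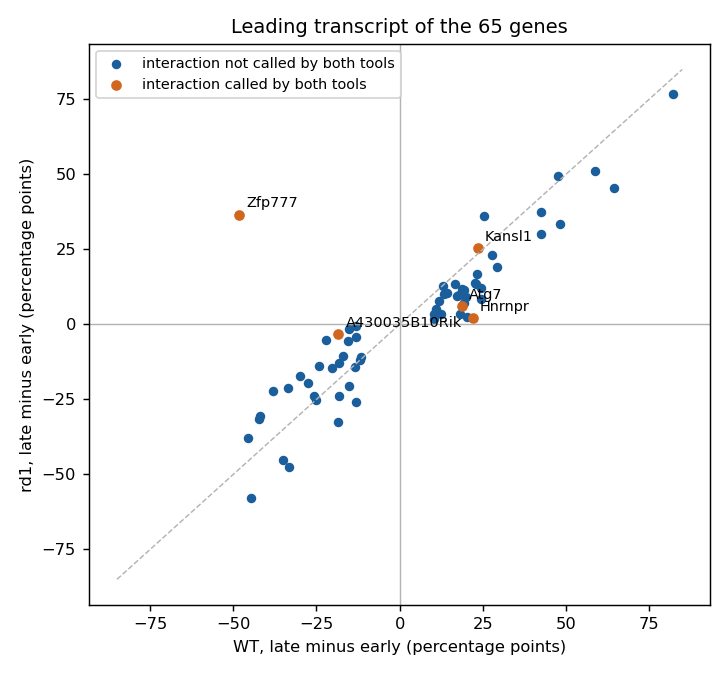
Difference in mean share of the leading transcript, late minus early, in percentage points, in WT (horizontal) and rd1 (vertical) for the 65 genes with a large shift; each point is 1 gene and the dashed line marks equal differences. Zfp777 alone has opposite signs, and the 5 orange genes are those whose difference between genotypes both tools called.

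A difference between the genotypes in how usage changed was called by both tools in 353 members of 7063 tested, where 4.01% of all genes tested were called, and in 5 of the 65 genes. The edgeR test called 863, where 10.3% of all genes tested were called, and limma 547. The late rd1 side held more P8 and fewer P10 libraries than the late WT side. The test had no term for age within a side, so genotype and age cannot be told apart in it. Zfp777, a zinc finger gene, went in opposite directions: Zfp777-001 stood at 57.6% ± 11.9 early and 9.32% ± 5.86 late in WT, and at 15.1% ± 5.74 and 51.7% ± 31.2 in rd1. Hnrnpr-001 stood at 20.1% ± 1.45 and 22.2% ± 4.43 in rd1, against 14.2% and 36.2% in WT.

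At P6, between the sides, the mean WT share lay between the early and late means in 57 of the 65 genes, and it was nearer to the early mean in 45. P6 replicate 1 stood apart, with 25749 genes detected where the other P6 WT libraries had 21510 to 22050, and without it these counts were 57 and 46. Averaged over the 4 P6 libraries, Clta-003 stood at 32.3%, Frmpd1-001 at 35.3% ± 18.8 and Rorb-001 at 54.5%.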

How the data were processed

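Per the labels' protocols, GFP+ rods were dissociated, sorted by flow cytometry and sequenced with a stranded mRNA kit. Per the submitters' processing notes, kallisto 0.42.4 and edgeR 3.32.1 were used on GRCm38.p5. The deposited transcript and gene tables hold the authors' expected counts (estimated, fractional), which were rounded for the tests. In each table, 1 column without a sample was not used. Shares are percentages of the gene's summed counts, so they weigh longer transcripts more and depend on how reads were divided among similar transcripts, for which the tables give no error. In R 4.3.3, edgeR 4.0.16 (TMM, filterByExpr, diffSpliceDGE with the gene-level F test) was fitted to early and late WT libraries over the whole table, with Benjamini-Hochberg adjustment over the 8238 genes tested and a threshold of 0.05. The tests were checked on simulated counts, with and without changed genes. There the F test passed too many unchanged genes, most of all for the interaction of genotype and age. It was kept as the main test, as planned, and the requirement of a second call by limma 3.58.1 (voom, diffSplice) was added after that check and after results were known. DESeq2 1.42.0 was another alternative. Gene-level differences are edgeR quasi-likelihood estimates. Exon percentages sum transcripts by GENCODE M21 models and were not tested. Transcript classes were compared by an exact permutation test over 462 splits. Named genes were the 24 largest shifts, up to 4 called genes per list, 6 splicing regulators by p and the photoreceptor isoform list; further genes, and the exons and promoters shown, were chosen after their values were seen. Members and lists were chosen with earlier results of these data known. The main test did not use replicate numbers to pair the samples. In 10 pairs of libraries with equal numbers, correlations ran from -0.111 to 0.647 (median 0.0974), the highest between P8 and P10 replicate 2. Pairs with unlike numbers were not set beside them, so these values cannot say whether the numbers pair the samples.
Some results are not reported here.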

Additional observations from a re-analysis of the deposited data

Results flagged for a closer look

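In 12 of 106 groups (11.3%) of early or late shares of the genes described or listed, 1 library stood apart from the rest of its side by Dixon's criterion, which flags about 5% of groups by chance. P8 replicate 2 stood apart in Rabgef1-002 (20.1%), Dvl2-001 (7.95%) and Sptb-002 (47.2%), on the early side of its group each time. P10 replicate 5 stood apart in Tial1-001 (25.3%), Srpk2-001 (57.7%) and Hk1-014 (13.2%), and P8 replicate 1 in Prc1-006 (0.204%) and Ank3-202 (2.89%). For Prc1-006 and Ank3-202 the nearest other late shares were 0% and 0.507%, so both flags rest on values near 0. Among early libraries, P2 replicate 2 stood apart in Exoc7-001 (24.9%) and Hnrnpr-001 (22.8%), P4 replicate 1 in Clta-003 (22.9%) and P4 replicate 2 in Glb1l2-002 (45.8%).

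The late minus early difference in usage differed between WT and rd1 by the interaction test of both tools in the genes that follow. The adjusted p of edgeR was 2.81e-05 for Zfp777, 5.93e-05 for Kansl1, 0.000219 for Nr2e3, 0.00197 for Hnrnpr, 0.0284 for Unc13b, 0.034 for Atg7 and 0.035 for Rbm39. Depth differed between the genotypes at P2, P4 and P10 and cannot be told apart from them there. The mix of P8 and P10 libraries on the late side differed too, and the test does not separate it from genotype.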

How the results depend on the processing

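The main test called 677 members. Other settings that moved this count by over 1.5 times gave 1411 (DESeq2 with gene sums as normalization factors), 231 (Simes in place of the F test), 317 (replicate block) and 419 (without the 3 P10 libraries with Xist near 0, chosen after seeing the data), and leaving out 1 library gave 462 to 713. The 65 large shifts became 187 by limma (56 shared), 285 by DESeq2 (59 shared), 34 with the replicate block, 34 at 20 points and 44 without the 3 P10 libraries (22 shared), and 48 to 71 without 1 library. In rd1, 1195 calls became 365 with the replicate block and 662 to 1866 without 1 library (at most 784 without P2 replicate 2, either P4 library or P8 replicate 2, 3 or 4, and 1866 without P10 replicate 2), and the 863 interaction calls became 547 by limma and 568 with the block. The cause was not tested. Leaving out 1 library ended the call of Clk1, Srpk2, Unc119, Rtn4, Kif3a and Rbm39 in at least 1 case. Of the genes described, Cc2d2a, Glb1l2, Hnrnpf, Nr2e3, Nrl, Rbm39, Rtn4, Srsf6, Stx3, Unc119, Clk1 and Srpk2 lost their call with the replicate block, and Glb1l2, Hnrnpf, Nr2e3, Nrl, Rbm39, Rtn4, Stx3, Tpm3, Ttc8, Unc119, Clk1 and Srpk2 without the 3 P10 libraries. As a mean over genes, the retained-intron difference was -0.04276 and the nonsense-mediated decay one -0.008304. Without 1 library the retained-intron difference ranged from -0.1778 to 0.5993, and was negative without P4 replicate 2, P10 replicate 5 (-0.09752) or P2 replicate 2 (-0.01522). Differences of genes not called also changed sign without 1 library, over ranges of -9.377 to 5.293 (Cacna1d), -2.233 to 2.893 (Rims2), -2.84 to 0.2579 (Mef2d), -1.321 to 0.1355 (Pde6b) and -0.1314 to 4.106 (Impdh1). Shares carry no assignment error, and genes with few counts are the least precise.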
